A study of Caenorhabditis elegans with 4 samples.

Results

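The genes described are 9 core genes of the unfolded protein responses of *C. elegans*, taken by name from the 15408 genes of the deposited table. The ER arm has 6 genes, *hsp-3*, *hsp-4*, *xbp-1*, *ire-1*, *pek-1* and *atf-6*, and the mitochondrial arm has 3, *hsp-6*, *hsp-60* and *atfs-1*. They were measured in 4 RNA-seq libraries of the wild-type strain N2, grown on OP50 bacteria as populations of mixed stages, of which 2 had been kept at 20°C with cisplatin at 60 µg/ml for 24 h and 2 without it. Cisplatin is a platinum drug that crosslinks DNA and also binds thiol groups of proteins. The libraries of each group are numbered 1 and 2 and are biological replicates according to the labels. Each library pools embryos, larvae and adults, so fewer cells of a type and less RNA per cell cannot be told apart.

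The unfolded protein responses are transcriptional programmes by which cells adjust chaperones to the load of misfolded protein in an organelle. In the ER, IRE-1 splices the mRNA of the transcription factor XBP-1, PEK-1 phosphorylates the initiation factor eIF2α and slows translation, and ATF-6 is a membrane-bound transcription factor. The BiP chaperones HSP-3 and HSP-4 are the main Hsp70 proteins of the ER lumen, and *hsp-4* is the usual reporter of this arm. In mitochondria, the transcription factor ATFS-1 is imported and degraded in healthy organelles and moves to the nucleus when import fails, where it raises *hsp-6* (mitochondrial Hsp70) and *hsp-60* (the mitochondrial chaperonin). IRE-1 splicing and ATFS-1 import are not changes in transcript amount, and they are not measured by the gene-level values used here.

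The values are FPKM, sequenced fragments divided by the length of the transcript and the size of the library, so levels of different genes can be set side by side. Differences between the groups are on the scale log2(FPKM + 0.5), which understates those of low genes, and were tested with limma over 15065 genes, with Benjamini-Hochberg adjustment. No gene passed an adjusted p of 0.05 in this fit, which did not use the replicate numbers (0 of 15065, 0%). Before adjustment, limma gave a p of 0.05 or less to 168 genes higher with cisplatin (1.12%) and 67 lower (0.445%). A fit with the replicate number as a block did call genes, and its counts and limits are given at the end. The libraries are not on one level. The median gene had 9.67 and 12.8 FPKM in cisplatin replicates 1 and 2 and 6.97 and 13.3 FPKM in control replicates 1 and 2, and the median log2 difference of all genes was 0.13. The widths of the deposited confidence bounds correspond to 6.33 to 6.62 M fragments per library. Larval moult markers were higher in replicate 2 than in replicate 1 in both groups, 10 of 10, with summed levels of 150 and 453 FPKM in treated and 133 and 520 FPKM in untreated populations. Of all 15065 genes, 9725 were likewise higher and 2838 lower. All 6 tested oocyte and early embryo markers were lower in replicate 2 in both groups. Of the intestine markers 4 of 7 were higher there and 1 lower, and of the muscle markers 4 of 6 were higher and 2 lower. All 10 sperm markers had lower values under cisplatin in each pair of equal number, with summed levels of 703 and 827 against 1828 and 1559 FPKM. Among them *spe-9* was nearly equal in the second pair, at 1.337 against 1.344 FPKM. All 5 yolk markers were also lower in each pair, with summed levels of 16500 and 16290 against 22040 and 19490 FPKM. Of all genes 15.7% were lower in this way. None of the moult or sperm markers is at 0, and the part of these shifts in the results below was not tested.

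In FPKM as deposited, the ER chaperone gene *hsp-4* differed by nearly the same amount in both pairs of libraries. Its level was 372 and 368 FPKM under cisplatin and 269 and 270 FPKM in untreated worms, in the order of replicates 1 and 2 used throughout. Both cisplatin libraries lay above both controls, and the 2 libraries of each group were almost equal. The mean was 370 ± 3.0 FPKM (SD, n = 2) against 270 ± 1.1 FPKM (SD, n = 2), which is 1.37 times as high. The deposited bounds ran from 364 to 386 and from 360 to 382 FPKM with cisplatin and from 261 to 280 and from 262 to 282 FPKM without. These bounds do not touch, but they cover the error within a library and not that between populations. The log2 difference was 0.45 (standard error 0.180), with an unadjusted p of 0.0435 and an adjusted p of 1.00 in limma, and 20.0% of the genes tested had a larger difference in either direction. *hsp-4* (F43E2.8) lies on the minus strand of chromosome II from 7350112 to 7352645 in WBcel235, with 7 exons, and overlaps no other annotated gene.

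*hsp-3*, the other BiP gene, could not be compared in the same way, because the authors' software marked its estimate in control replicate 1 as failed. It had 342 and 440 FPKM with cisplatin and 398 FPKM in control replicate 2. The lone control value lies between both cisplatin values. With the failed library left out for this gene, which leaves 2 libraries against 1, the log2 difference was -0.04 (standard error 0.284). For both libraries of a condition together, the deposited FPKM of *hsp-3* is 369 with cisplatin and 333 without. The latter is below the only valid control value, and the sources used here do not say how the failed library entered it. These condition values are also on another scale than those of the libraries, as described below. The gene (C15H9.6) lies on the X chromosome from 6089028 to 6092124. HSP-3 and HSP-4 are close relatives, and reads that fit both genes may have been dropped by the authors' filter, so the division of reads between the pair is uncertain.

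**Figure D1:**
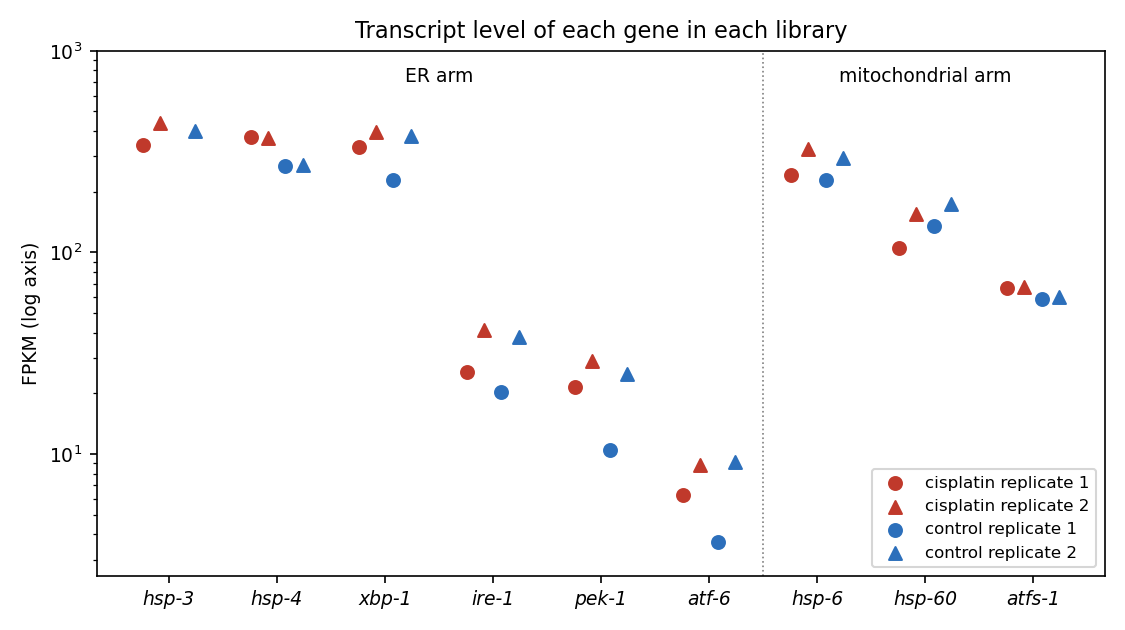
FPKM on a log axis of each of the 9 genes, with 1 point for each library, red for cisplatin and blue for control, circles for replicate 1 and triangles for replicate 2. The cisplatin points of *hsp-4* (372 and 368) and *atfs-1* (66.7 and 67.4) lie above those of the controls, whereas for *ire-1*, *pek-1* and *atf-6* the lowest point is control replicate 1. *hsp-3* has no point for control replicate 1.

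*xbp-1*, which encodes the transcription factor made active by IRE-1, was as abundant as the chaperone genes but differed more between replicates. Its libraries held 334 and 396 FPKM under cisplatin and 228 and 379 FPKM in the controls. Control replicate 1 was low, and the other 3 libraries lay close together. The log2 difference was 0.31 (standard error 0.283, adjusted p = 1.00 in limma), with 0.55 between the libraries numbered 1 and 0.06 between those numbered 2. *xbp-1* (R74.3) lies on the plus strand of chromosome III from 4193809 to 4195358, and its 2 annotated transcripts are counted together in the FPKM.

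The genes of the stress sensors were expressed at much lower levels than *xbp-1*, and their differences between the groups were largest in the pair that holds control replicate 1. *pek-1*, the kinase gene, stood at 21.6 and 28.9 FPKM in treated and 10.5 and 25.1 FPKM in untreated populations. It had the largest log2 difference of the tested members, 0.60, but its standard error was 0.461. The difference was 1.00 between the libraries numbered 1 and 0.20 between those numbered 2. *ire-1*, which encodes the kinase and endoribonuclease, had 25.5 and 41.3 against 20.4 and 38.3 FPKM, a log2 difference of 0.21 (standard error 0.395). The replicates of *ire-1* lay further apart than its groups, and its difference was 0.11 between the libraries numbered 2. *atf-6* was the lowest member, with 6.28 and 8.88 against 3.68 and 9.2 FPKM, a log2 difference of 0.32 (standard error 0.631). Its sign differed between the pairs, at 0.70 in the first pair and -0.05 in the second. The groups overlapped for all of *xbp-1*, *ire-1*, *pek-1* and *atf-6*, and without control replicate 1 their log2 differences were -0.06, -0.24, -0.01 and -0.28, against -0.15 for all genes. Without control replicate 2 they were 0.67, 0.66, 1.21 and 0.93, against 0.42 for all genes. *ire-1* was also below 0 without cisplatin replicate 2, at -0.13. Such a fit sets replicates 1 and 2 of one group against a single replicate of the other, and the lone control is assumed to vary like the cisplatin libraries.

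*pek-1* (F46C3.1) lies on the X chromosome from 11410176 to 11414887 with 12 exons, and *atf-6* (F45E6.2) on the same chromosome from 12480948 to 12484904 with 10. *ire-1* (C41C4.4) lies on the minus strand of chromosome II from 8112243 to 8124910. It contains the channel gene *unc-105* on the opposite strand, from 8116459 to 8122914, and the annotated exons of the pair share 4 bases. *unc-105* had 0.818 and 2.12 against 0.837 and 3.64 FPKM, far below *ire-1*. The sources used here do not say if strand was used in assigning reads. The depth behind these genes also differs. Read as a Poisson count, the deposited bounds of *atf-6* correspond to 116 and 132 fragments with cisplatin and 80.1 and 143 fragments without, against 286 to 604 for *pek-1* and 2910 to 4510 for *hsp-4*.

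In the mitochondrial arm the 3 genes did not share a direction. *hsp-60* was the only tested member lower under cisplatin in each pair of equal number, with 104.9 and 156 FPKM against 136 and 174 FPKM. The groups overlapped, since cisplatin replicate 2 lay above control replicate 1. The log2 difference was -0.26 (standard error 0.254, adjusted p = 1.00 in limma). *hsp-6* was at 243 and 326 FPKM in treated and 229 and 294 FPKM in untreated populations, a log2 difference of 0.12 (standard error 0.236), which is that of the median gene. Replicate 2 was the higher library in each group, and the difference between replicates was larger than that between groups. *atfs-1* measured 66.7 and 67.4 FPKM under cisplatin against 58.8 and 60.4 FPKM in the controls. As with *hsp-4*, both cisplatin libraries lay above both controls and the replicates were close, but the difference was smaller, at 0.17 on the log2 scale (standard error 0.188) or 1.13 times.

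*hsp-60* (Y22D7AL.5) lies on the plus strand of chromosome III from 1619742 to 1625803. Its neighbour on the other strand, 812 bases away, is *Y22D7AL.10*, which encodes the Hsp10 cochaperonin of HSP-60. *Y22D7AL.10* had 375 and 412 against 424 and 356 FPKM, a log2 difference of 0.02, so it was lower with cisplatin between the libraries numbered 1 and higher between those numbered 2. *hsp-6* (C37H5.8) lies on chromosome V from 4824124 to 4826760 and *atfs-1* (ZC376.7) on the same chromosome from 14193663 to 14197700, with 7 annotated transcripts. The FPKM of *hsp-6* lies above its own upper bound in all 4 libraries, for example 243 against 239 in cisplatin replicate 1. No other member did so, while between 9.65% and 10.7% of all genes tested did in each library.

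**Figure D2:**
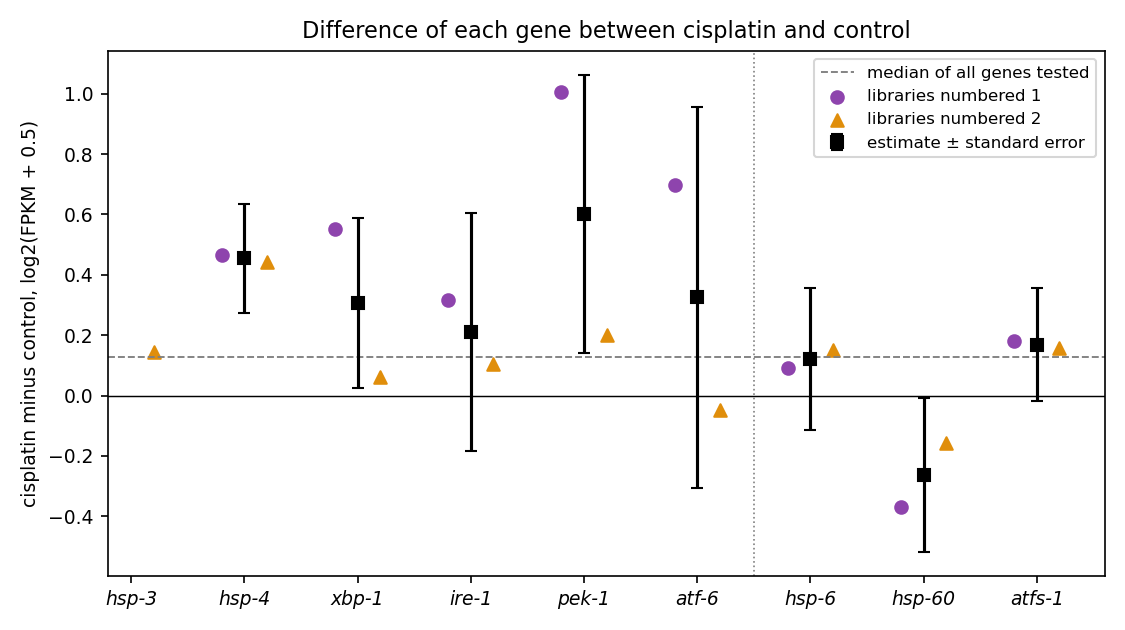
Difference between cisplatin and control in log2(FPKM + 0.5) for each gene. Black squares are the limma estimates with their standard errors, purple circles the difference between the libraries numbered 1, orange triangles that between the libraries numbered 2, and the dashed line the median of all genes tested (0.13). The pairs lie together for *hsp-4* (0.47 and 0.44) and *atfs-1* (0.18 and 0.16) and apart for *pek-1* (1.00 and 0.20) and *atf-6* (0.70 and -0.05).

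Among the 8 members tested, both pairs of equal number agreed on a higher level under cisplatin for 6 and on a lower level for 1. The same held for 38.4% (higher) and 15.7% (lower) of all genes. For 2 members, *hsp-4* and *atfs-1*, both cisplatin libraries lay above both controls, as they did for 15.1% of all genes, and for no member did both lie below, as for 4.21% of all genes. In limma without the replicate block the unadjusted p was 0.05 or less for 1 member, *hsp-4*, which was higher. The same held for 1.12% of all genes (higher) and 0.445% (lower). Exact permutation of 2 libraries against 2 has a smallest two-sided p of 0.33 and was not used.

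Compared as arms, the ER genes had the larger median difference between the libraries numbered 1 and not between those numbered 2. The median log2 difference was 0.32 for the 5 ER genes tested and 0.12 for the 3 mitochondrial genes, against 0.13 for all genes. Between the libraries numbered 1 the medians were 0.55 and 0.09, against 0.25 for all genes, and between those numbered 2 they were 0.10 and 0.15, against 0.00. By medians, the excess of the ER arm over the mitochondrial arm was therefore 0.46 in the first pair and -0.05 in the second. Within each library, the mean log2 level of the 5 ER genes minus that of the mitochondrial genes was -1.14 and -1.11 with cisplatin and -1.78 and -1.21 without. By means, the ER arm was thus relatively higher with cisplatin in both pairs, by far less in the second. The other 3 libraries were alike in this distance, and control replicate 1 stood apart. Without control replicate 1 both arms had a median of -0.06, where that of all genes was -0.15, so the arms did not differ there but both lay above the median gene. The members were chosen by name with earlier results of these data known, and no test was made over them.

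The ratio of transcripts within a library is unchanged when all values of the library are divided by one factor. There were 1.53 and 1.13 *hsp-4* FPKM for each *hsp-6* FPKM with cisplatin and 1.18 and 0.921 without. This ratio of the reporter genes of the arms was higher with cisplatin in each same-numbered pair, by 1.30 and 1.22 times, but its groups overlapped. The ratio of *hsp-4* to *hsp-60* was 3.54 and 2.36 with cisplatin and 1.98 and 1.56 without, and here both cisplatin libraries lay above both controls. The mitochondrial chaperones also differed from each other, with a ratio of *hsp-6* to *hsp-60* of 2.32 and 2.1 with cisplatin and 1.68 and 1.69 without. In both ratios to *hsp-60* the groups were apart. Among the sensors, *pek-1* was at 3.43 and 3.26 times *atf-6* with cisplatin and 2.85 and 2.73 times without, so the cisplatin libraries again lay above the controls. *pek-1* was also higher relative to *ire-1*, with ratios of 0.844 and 0.701 against 0.515 and 0.655, whereas *xbp-1* to *atfs-1* overlapped, at 5.01 and 5.88 against 3.88 and 6.28. The groups also overlapped for the ratios of *ire-1* to *atf-6*, *xbp-1* to *atf-6* and *xbp-1* to *ire-1*. These ratios were chosen after the values were seen. The share of all gene pairs whose ratio separates the groups was not computed, so the separations above have no background to be set against.

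Which genes separate the groups depended on the scale. Relative to the median gene of its library, *hsp-4* was at 38.5 and 28.7 with cisplatin and 38.6 and 20.4 without, so that control replicate 1 was the highest library and the groups overlapped. *atfs-1*, at 6.90 and 5.26 against 8.43 and 4.56, also overlapped on this scale. Instead, *pek-1* was at 2.23 and 2.26 against 1.51 and 1.89, with both cisplatin libraries above both controls. This was the case for 7.79% of all genes on this scale. *hsp-60* was at 10.9 and 12.1 against 19.5 and 13.1, with both cisplatin libraries below both controls, as for 9.24% of all genes. *ire-1* had 2.64 and 3.22 against 2.92 and 2.89 and *xbp-1* had 34.6 and 30.9 against 32.7 and 28.6. The log2 difference of *hsp-4* was 0.24 on this scale, with an unadjusted p of 0.732 in limma, and those of *hsp-6* and *atfs-1* changed sign, to -0.09 and -0.04. Minus the median of all genes, which was -0.06 there, *hsp-4* was at 0.30, *hsp-6* at -0.03 and *atfs-1* at 0.02. In FPKM as deposited these distances were 0.33, -0.01 and 0.04. With quantile normalization the log2 difference of *hsp-4* was 0.35, with an unadjusted p of 0.0624 in limma.

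**Figure D3:**
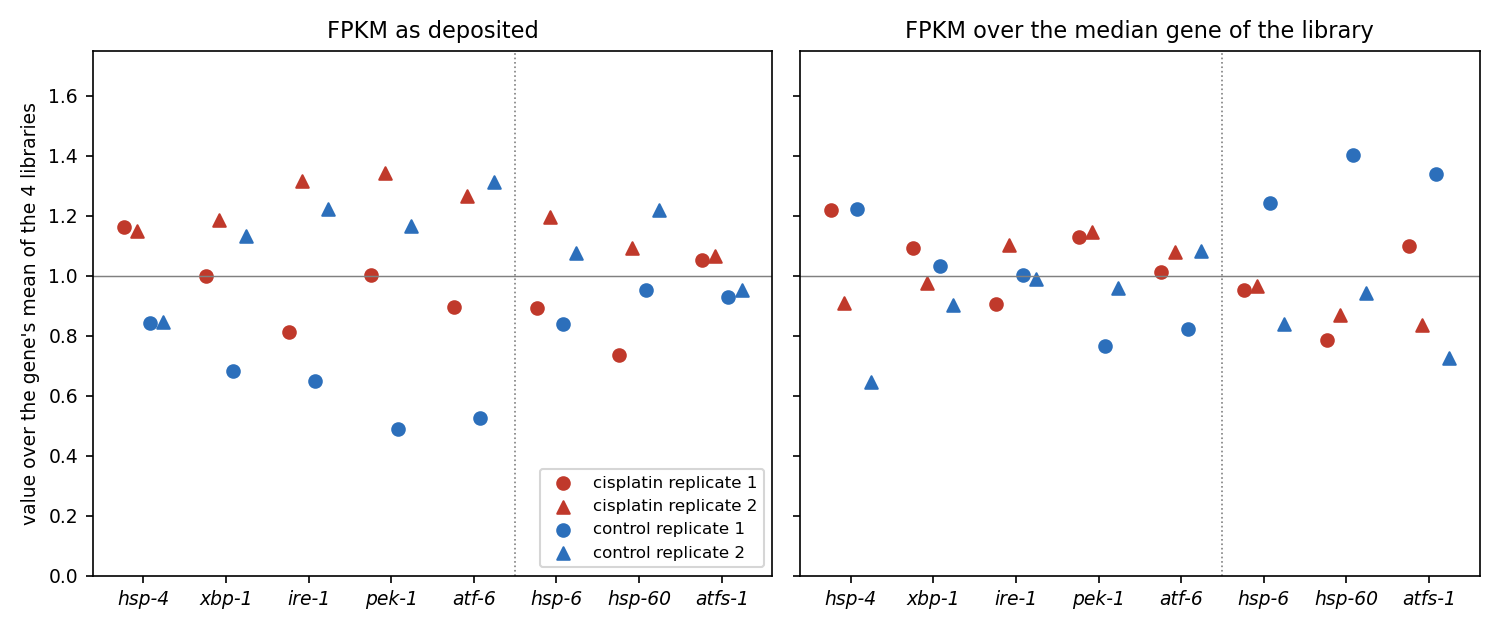
Value of each tested gene in each library, divided by the gene's mean over the 4 libraries, from FPKM as deposited (left) and from FPKM divided by the median gene of the library (right), with colours and shapes as in the plot of levels. On the left the groups separate for *hsp-4* and *atfs-1*, and on the right for *pek-1* (2.23 and 2.26 against 1.51 and 1.89 times the median gene) and *hsp-60*.

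The deposited FPKM of a condition, which the authors' software computed over both replicates, is on another scale. Over all genes tested its median ratio to the mean of the library values is 0.944 for cisplatin and 1.02 for control. By these values *hsp-4* is at 354 and 295 FPKM, *pek-1* at 23.8 and 17.6 FPKM, *hsp-60* at 122 and 164 FPKM, *hsp-6* at 268 and 277 FPKM and *atfs-1* at 63.9 and 64.9 FPKM, with cisplatin and without. Of the 8 tested members, *hsp-6* and *atfs-1* changed direction between these scales and the others did not.

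The members differed between replicates in a way that was partly shared by the groups. *ire-1* was higher in replicate 2 by 0.68 on the log2 scale with cisplatin and by 0.89 without, and *hsp-60* by 0.57 and 0.35. *pek-1* and *atf-6* were higher in replicate 2 by 0.41 and 0.47 with cisplatin and by 1.22 and 1.21 without. The replicate difference of the controls thus exceeded that of the cisplatin libraries for both genes. For *hsp-4* and *atfs-1* the differences were -0.02 and 0.02 with cisplatin and 0.01 and 0.04 without, while the median gene was higher in replicate 2 by 0.28 with cisplatin and 0.65 without. A gene with an even FPKM across replicates is therefore lower relative to other genes in replicate 2. The panels of the scaling plot differ by the median gene of each library. This median also differed between the groups, at 9.67 FPKM with cisplatin and 6.97 FPKM without in replicate 1.

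**Figure D4:**
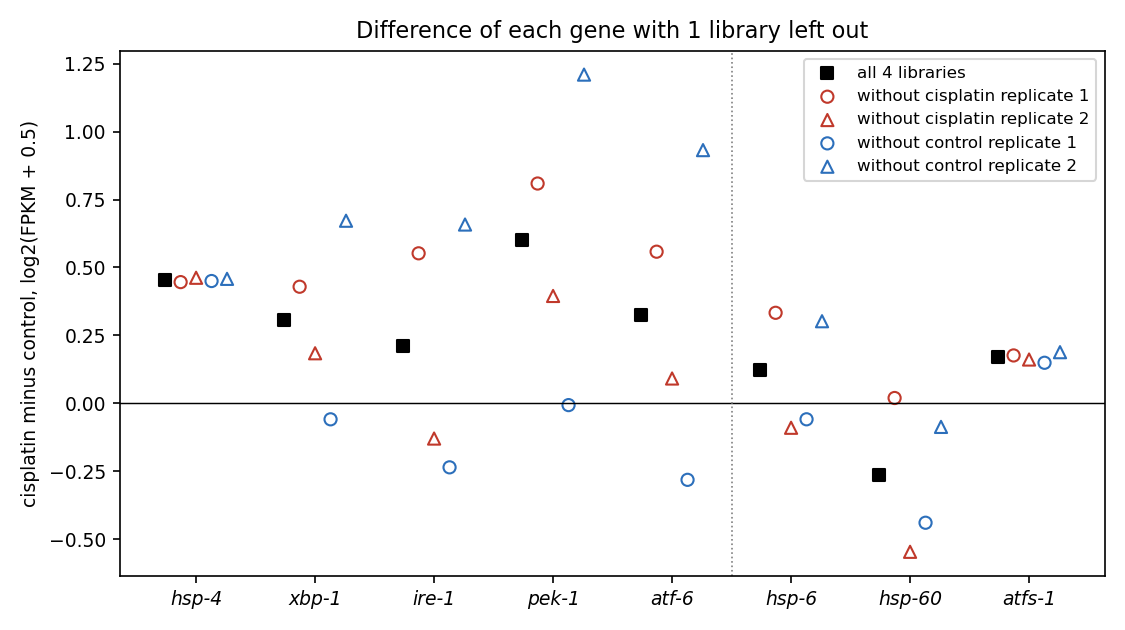
Log2 difference between cisplatin and control of each tested gene with all 4 libraries (black squares) and with 1 library left out (open symbols, coloured by the library that was left out). The estimates stay between 0.45 and 0.46 for *hsp-4* and between 0.15 and 0.19 for *atfs-1*, and spread from -0.28 to 0.93 for *atf-6* and from -0.01 to 1.21 for *pek-1*. With 1 library left out the median of all genes also moved, from -0.15 to 0.42. Minus that median, *hsp-4* ranged from 0.03 to 0.60 and *atfs-1* from -0.24 to 0.30. On the same footing *atf-6* ranged from -0.13 to 0.51 and *pek-1* from 0.15 to 0.79.

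In order of level in the controls, *xbp-1* (304 ± 107 FPKM, SD, n = 2), *hsp-4* (270 ± 1.1) and *hsp-6* (261 ± 46) came first and did not differ beyond their spread. *hsp-3*, with 398 FPKM in its only control, belongs beside them. *hsp-60* (155 ± 27), *atfs-1* (59.6 ± 1.2), *ire-1* (29.4 ± 13), *pek-1* (17.8 ± 10.3) and *atf-6* (6.44 ± 3.9) followed. Each step from *hsp-6* to *hsp-60* to *atfs-1* to *ire-1* exceeded the spread. The control values of *ire-1* and *pek-1* overlapped, but within every library *pek-1* was the lower gene, at 0.515 to 0.844 of *ire-1*. The transcript of *xbp-1* was 41.2 to 62.0 times that of *atf-6* in every library, and *atf-6* was the only tested member under the median gene, at 0.528 to 0.694 of its level.

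Around the members, genes of ER-associated degradation mostly had the same direction in FPKM as deposited. Of their 19 genes, 17 were tested, and the pairs agreed on a higher level under cisplatin for 15 and on a lower level for none, with a median log2 difference of 0.20 against 0.13 for all genes. Over all genes 38.4% were higher in this way. The median of the list was 0.088 with quantile normalization and -0.016 with libraries scaled to the same median, against 0.01 and -0.06 for all genes. Without control replicate 2 it was 0.12, under the 0.42 of all genes. Without cisplatin replicate 1 it was 0.15, under 0.27. It was above all genes without cisplatin replicate 2, at 0.168 against 0.003, and without control replicate 1, at 0.165 against -0.15. Between the libraries numbered 1 it was 0.21 against 0.25, and between those numbered 2 it was 0.13 against 0.00. *cdc-48.2*, an AAA ATPase that extracts substrates from the ER, had 252 and 220 against 181 and 172 FPKM, a log2 difference of 0.42. *edem-2* (F10C2.5 in the table), a mannosidase-like gene, had 9.06 and 18.7 against 4.67 and 16.7 FPKM. At the other end, *ubc-6*, a ubiquitin-conjugating enzyme gene, was at 58.3 and 54.9 against 61.2 and 52.3 FPKM, and the derlin gene *cup-2* at 144 and 153 against 143 and 142 FPKM. In *cdc-48.2* both cisplatin libraries lay above both controls, as in 6 of the 17 genes and 15.1% of all genes.

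ER chaperones and folding enzymes were mixed. Among 21 tested the pairs agreed on higher for 12 and on lower for 3, against 38.4% and 15.7% of all genes. The median of the list was 0.17. This median was -0.223 without control replicate 1, 0.565 without control replicate 2, 0.415 and 0.016 without cisplatin replicates 1 and 2, and -0.002 with libraries scaled to the same median. In the same order the median of all genes was -0.154, 0.424, 0.272, 0.003 and -0.06. *dnj-20*, an ER DnaJ cochaperone of BiP, had 250 and 246 against 171 and 204 FPKM, with both cisplatin libraries above both controls. This was so in 6 of the 21 genes and 15.1% of all genes, and both lay below in 1 of the 21 and 4.21% of all genes. *dnj-7*, the P58IPK homolog, had 25.01 and 44.3 against 13.6 and 38.6 FPKM, and *C14B9.2*, a protein disulfide isomerase, had 45.5 and 75.7 against 26.3 and 70 FPKM. The lowest were *fkb-5*, a peptidyl-prolyl isomerase, at 17.4 and 63.8 against 27.1 and 75.5 FPKM, and *uggt-2* at 0.285 and 0.705 against 0.144 and 1.81 FPKM. As for the sensor genes, replicate 2 was the higher library in both groups in 16 of the 21 genes, and in 9725 of all 15065.

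The ER translocon and N-glycosylation genes, which handle nascent proteins entering the ER, had a median of 0.05. With libraries scaled to the same median it was -0.163, where all genes were at -0.06. Against 38.4% and 15.7% of all genes, the pairs agreed on higher for 7 of these 17 and on lower for 6. Their lowest member was the gene of the Sec61 alpha subunit (Y57G11C.15), with 456 and 509 against 536 and 600 FPKM, and *trap-3* had 373 and 354 against 443 and 385 FPKM. Both genes had both cisplatin libraries below both controls, as did 4.21% of all genes and 4 of the 17. Their highest were *spcs-1*, at 123 and 138 against 105.3 and 126 FPKM, and *stt-3*, at 147 and 171 against 125 and 163 FPKM. Genes next to the sensors in the pathway had a median of 0.44 over 6 tested genes. It was 0.021 without control replicate 1, 0.68 without control replicate 2 and 0.229 with libraries scaled to the same median. All genes were then at -0.154, 0.424 and -0.06. Among the genes next to the sensors, *atf-4* (*atf-5* in the table), the transcription factor translated when eIF2α is phosphorylated, had 128 and 119 against 70.5 and 117.3 FPKM. *rtcb-1*, the RNA ligase that joins the *xbp-1* exons, had 30.8 and 30.1 against 20.6 and 24.3 FPKM, and *ckb-2*, a choline kinase gene, had 31.1 and 43.1 against 13.96 and 36.2 FPKM. The lowest of them were *gcn-1*, at 17.01 and 23.6 against 18.4 and 23.4 FPKM, and *iftb-1*, the eIF2 beta gene, at 244 and 220 against 260 and 228 FPKM. The log2 difference of *atf-4* was 0.85 between the libraries numbered 1 and 0.02 between those numbered 2. *dnj-20*, *atf-4* and *rtcb-1* lie outside the naming rule and were chosen after their values were seen, as was *dve-1* below. Of 15 *abu* genes, which are named for their activation when the ER response is blocked, 5 were in the table, all higher in replicate 2 in both groups and none on the same side in both pairs, with *abu-13* at 10.7 and 31.9 against 7.95 and 37.97 FPKM.

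The mitochondrial lists had medians at or under that of all genes with all 4 libraries, and this order turned with 1 library. Without control replicate 1, where all genes were at -0.15, the medians were 0.024 for import, 0.16 for the respiratory chain and ATP synthase, -0.047 for chaperones and proteases and -0.069 for stress signalling. Mitochondrial protein import genes had a median of -0.06. Against 38.4% and 15.7% of all genes, the pairs agreed on higher for 3 of these 15 and on lower for 5. Among them *tomm-22*, a receptor subunit of the outer membrane translocase, had 189 and 140 against 219 and 171 FPKM. Mitochondrial chaperones and proteases had a median of 0.02, with 5 of 17 higher and 5 lower, against the same shares of all genes. The lowest was *mppa-1*, a subunit of the peptidase that cleaves import signals, with 20.4 and 28.7 against 31.5 and 32.4 FPKM, and the highest was *dnj-10*, a mitochondrial DnaJ protein and partner of HSP-6, with 29.6 and 49.2 against 20.5 and 43.4 FPKM. Mitochondrial stress signalling genes had a median of 0.10. *dve-1*, a homeodomain factor of the mitochondrial response, had 10.6 and 16.3 against 5.94 and 21.01 FPKM and *ubl-5*, its ubiquitin-like partner, had 89.9 and 85.0 against 99.2 and 94.3 FPKM. *haf-1*, a peptide transporter, had 1.498 and 2.46 against 1.62 and 3.24 FPKM, and *met-2*, a histone methyltransferase of the same response, had 19.9 and 29.6 against 12.9 and 27.1 FPKM. Respiratory chain and ATP synthase genes had a median of 0.03 over 46 genes, from -0.15 to 0.34, and 37 of them were lower in replicate 2 in both groups, whereas 7 of the 8 tested members were higher there. Of all 15065 genes, 9725 were higher and 2838 lower in replicate 2 in both groups.

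In limma without the replicate block no gene of these lists passed an adjusted p of 0.05. In the ER and mitochondrial lists outside the members 0 genes had an unadjusted p of 0.05 or less in that fit. Cytosolic heat shock genes, which answer misfolding outside the organelles, had a median of 0.11 over 23 genes with a wide range. With libraries scaled to the same median it was -0.102, where all genes were at -0.06. The pairs agreed on higher for 11 of the 23 and on lower for 3, against 38.4% and 15.7% of all genes. Both cisplatin libraries lay above both controls for 8 and below for 3, against 15.1% and 4.21% of all genes. *hsp-17* had 149 and 180 against 116 and 120.9 FPKM (unadjusted p = 0.0444 and adjusted p = 1.00 in limma). *hsp-16.2*, a small heat shock gene, had 140 and 97.8 against 94.8 and 41.3 FPKM, and *hsp-12.3* had 9.22 and 6.16 against 11.8 and 12.5 FPKM. The log2 differences of *hsp-17*, 0.47, and of *hsp-4* were alike in size.

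**Figure D5:**
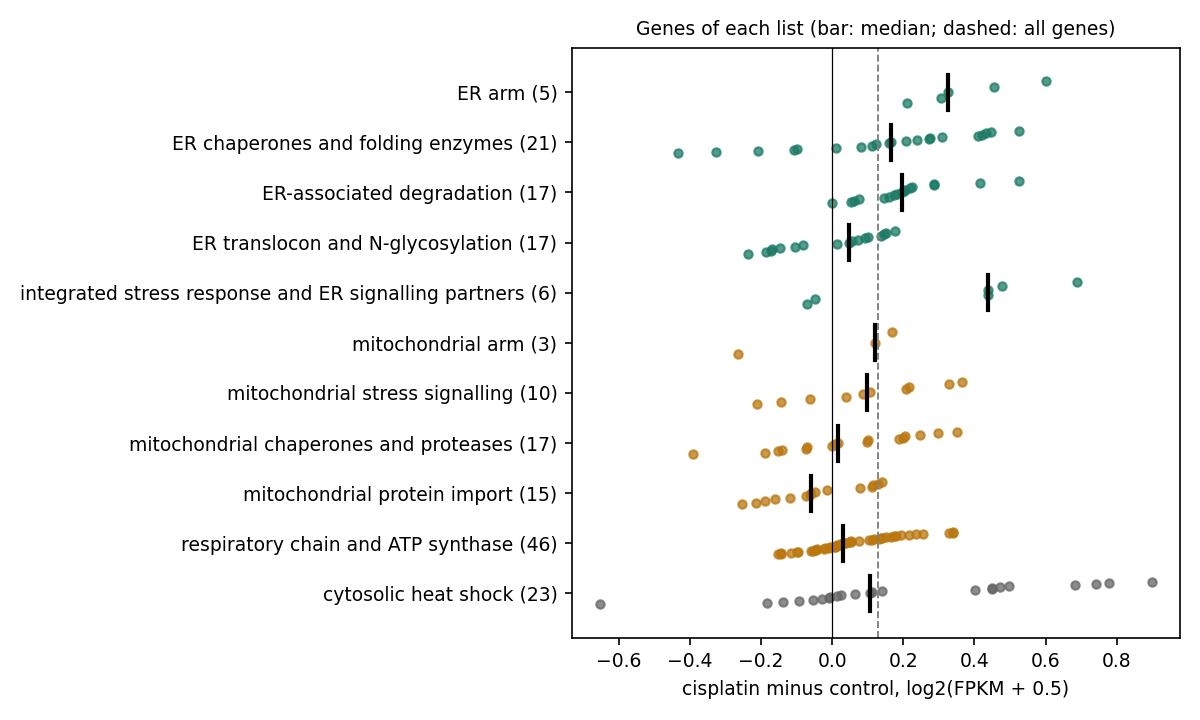
Difference between cisplatin and control in log2(FPKM + 0.5) of each tested gene of the members' arms and of the lists around them, with the number of genes in brackets. Green points are ER genes, brown points mitochondrial genes and grey points cytosolic heat shock genes, the black bar is the median of a list and the dashed line that of all genes (0.13). Genes of ER-associated degradation lie from 0.00 to 0.52, and those of mitochondrial import from -0.25 to 0.14.

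The genes whose pattern over the 4 libraries was closest to *hsp-4*, by the root mean square distance of centred log2 values, were *nkat-3* (0.012), *arp-11* (0.020) and *ets-9* (0.025). *arp-11*, an actin-related gene, had 55.3 FPKM in each cisplatin library and 40.3 and 39.2 FPKM in the controls. Within a distance of 0.1 there were 231 genes for *hsp-4* and 625 for *hsp-6*, whose closest were *cogc-8* (0.010), *C10E2.6* (0.020) and *K02B12.7* (0.022). None of these closest genes is in the lists above.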

How the data were processed

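Poly(A) RNA of 4 N2 populations was sequenced as paired reads. The authors mapped them to WBcel235 with TopHat, dropped those mapping to several sites, and estimated expression with Cufflinks and Cuffdiff, whose versions are not given in the sources used here. The deposited table holds FPKM, confidence bounds and an estimate status for each library, an FPKM for each condition, and the authors' own fold changes, p-values and tests of alternative splicing, which were not used. The dose is that of the treatment field, since a protocol text common to treated and untreated samples gives 0 µg/ml. Columns were matched to samples by name.

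Genes with a failed estimate in any library (88) and those with a mean under 0.5 FPKM (255) were left out. log2(FPKM + 0.5) was compared between the groups in R 4.3.3 by limma 3.58.1, using an intensity trend and Benjamini-Hochberg adjustment, and the fit was tested on simulated data. The members were given by name, and the lists, from general knowledge, were written with earlier results of these data known. The naming rule took the 2 genes at either end of each list, from which examples are given, any with an unadjusted p up to 0.05, and the 3 genes closest in pattern to *hsp-4* and *hsp-6*. Other pseudocounts, filters, scalings, a replicate block and fits without each library were tried. Of 15408 gene IDs, 15193 matched RefSeq names, and coordinates are from Ensembl release 115 (WBcel235). Tests on sequences of promoters and proteins were not made. p-values and standard errors measure the spread between these 4 libraries, with each gene's variance drawn towards that of genes of similar level. Those of *hsp-4* and *atfs-1*, whose replicates were almost equal, therefore rest mostly on the spread of other genes. Without the intensity trend the unadjusted p of *hsp-4* was 0.174 in limma.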

Additional observations from a re-analysis of the deposited data

How the results depend on the processing

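No member passed an adjusted p of 0.05 in limma under any alternative. The log2 difference of *hsp-4* ranged from 0.24 to 0.46, its unadjusted p from 0.00256 with the replicate number as a block to 0.732 with libraries scaled to the same median, and its adjusted p from 0.0907 to 1.00 in the same order. The block called 231 genes higher and 138 lower, on 1 residual degree of freedom per gene. Before adjustment, limma with the block gave a p of 0.05 or less to 1043 genes higher and 441 lower, of 15065. Beside *hsp-4* these held *pek-1* (unadjusted p = 0.0153, adjusted p = 0.274) and *xbp-1* (unadjusted p = 0.043, adjusted p = 0.475). The labels state no shared batch for a number, and the replicate differences of the groups correlated across genes at r = 0.59, genes not being independent replicates. A pseudocount of 1 called 1 gene higher. Without 1 library between 0 and 18 genes were higher and between 0 and 7 lower.

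Leaving out 1 library gave log2 ranges of -0.0592 to 0.672 for *xbp-1*, -0.236 to 0.658 for *ire-1*, -0.00686 to 1.21 for *pek-1*, -0.282 to 0.932 for *atf-6*, -0.0903 to 0.333 for *hsp-6* and -0.547 to 0.0193 for *hsp-60*. All of these lowest values but those of *hsp-6* and *hsp-60*, which were without cisplatin replicate 2, were without control replicate 1, where *hsp-6* was at -0.0591. *ire-1* was at -0.130 without cisplatin replicate 2, and *hsp-60* was above 0 without cisplatin replicate 1. With libraries scaled to the same median *hsp-6* was at -0.0896, *atfs-1* at -0.0411 and the median of the mitochondrial arm at -0.0896, and with quantile normalization that median was 0.047. All genes had a median of -0.06 and 0.01 with these scalings. Without 1 library the median of the ER arm ranged from -0.059 to 0.672, that of the mitochondrial arm from -0.09 to 0.188 and their difference from 0.00 to 0.484, while the median of all genes ranged from -0.15 to 0.42. The causes were not tested.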
